A study of Arabidopsis thaliana with 2 samples.

Results

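One array of the 2 in the study was described, that of T87 cells taken 1 day after inoculation, on which polysomal RNA was set against total RNA. T87 is a suspension cell line of Arabidopsis thaliana, grown in liquid medium under a light and dark cycle and moved to fresh medium every week, so it is a culture and not a plant tissue. The extract was separated on a sucrose gradient; fractions 1 to 3 gave the polysomal pool, fractions 1 to 8 gave all RNA, and both pools were amplified from an oligo(dT) primer, dyed and hybridised together. The array held 37478 gene probes, which named 25453 genes, and 21422 of these genes gave a value apart from that of the negative control spots. No treatment, mutation or transgene is given in the labels.

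Ribosomes that read one mRNA together form a polysome, which sinks deeper in a sucrose gradient than free RNA or RNA bound to a single ribosome. The share of an mRNA found in polysomes is a common measure of how actively it is translated. Short reading frames hold few ribosomes and so tend to sediment with lighter polysomes, and upstream open reading frames in the leader are known to hold back ribosomes in plants as in other eukaryotes.

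The deposited value is the log10 of polysomal over total RNA, given here as a percentage. The direction was taken from the column's name and the study design, since the labels of the dyes and channels conflict. With the opposite direction every ratio called high below would be low, and the reverse. The label text names a nonpolysomal pool in one place where the rest names all fractions, so the denominator is not fully settled. The values rest on 1 array with no replicate, so no test was possible, and every statement below compares genes within one hybridisation. Of 14 markers of green cells all 14 had signal, as did all 9 of xylem and 9 of 10 of seed and embryo. So did 3 of 5 of root hairs, 1 of 3 of pollen and 1 of 4 of guard cells. Over all named genes only 15.8% had no signal. These counts show presence of signal and no level, since the value is a ratio, and they do not identify cell types.

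The middle of the distribution was narrow. Ranked by polysome ratio, the median gene stood at 36.1%, and the quartiles lay at 32.0% and 40.1%, which is 0.33 on the log2 scale. From the 5th to the 95th percentile the ratios ran between 20.6% and 52.8%, and the extremes were 1.09% and 254%. Spots without signal sat at 53.8%, which is 0.57 on the log2 scale above the median gene, and 1021 genes (4.77%) lay above that value. For 144 genes (0.672%) the ratio given was above 100%. If the denominator was all fractions, a true share could not exceed 100%. The percentages are thus read as relative values between genes and not as calibrated shares of an mRNA in polysomes. A gene was counted as high or low where it lay at least 0.32 on the log2 scale from the median gene. The bounds were 45.2% or more and 28.9% or less. By this rule 2260 genes (10.5%) were high and 3330 (15.5%) were low. Counts of high and low members below are to be read beside these shares. The bound for high genes lies under the 53.8% of spots without signal, so a gene counted as high can have a value near that of no signal. How many high genes were weakly hybridised was not tested. Different probes of one gene differed by a median SD of 0.15 on the log2 scale over 591 genes, against a median SD of 0.03 between spots of 23 probes printed 10 times, and most genes had 1 probe only.

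**Figure D1:**
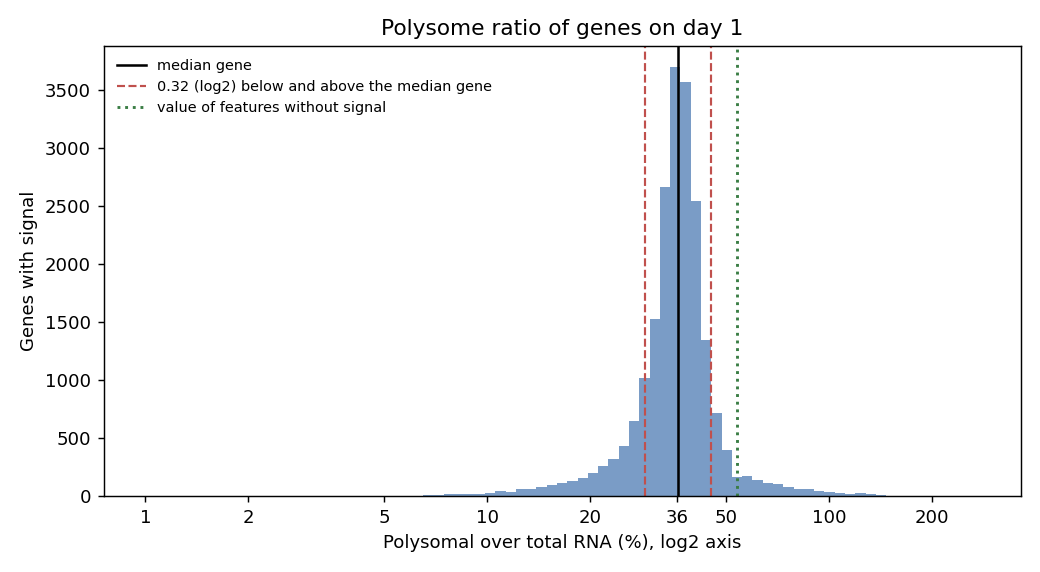
Histogram of the polysome ratio (polysomal over total RNA in percent, log2 axis) of the 21422 genes with signal. The solid line marks the median gene at 36.1%, the dashed lines the bounds at 28.9% and 45.2%, and the dotted line the 53.8% of spots without signal; most genes fall between the dashed lines and a thin tail runs down to 1.09%.

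Genes were grouped into 96 families by the wording of their descriptions, and the median of each was set against the median gene. In 11 families the median lay at least 0.15 on the log2 scale above it, and in 10 at least 0.15 below. Family medians ran between -1.19 and 0.38 on that scale. In 42 families fewer than 10% of the members were without signal, and there 3 medians were high and 4 low. The other 54 families held 8 high and 6 low medians, and their members were also more scattered, with a median interquartile range of 0.41 on the log2 scale against 0.23 in the 42. Beside each family below, the share of its members without signal is given where it is 10% or more. The part of that share in the result was not tested. Grouping genes instead by descriptions alike apart from numbers and bracketed text gave 411 groups of at least 8 measured genes. Of these, 39 medians lay at least 0.15 (log2) above the median gene and 42 at least 0.15 below. Among the lowest, 8 beta-galactosidase related genes had 22.1%, with 6 low and 20% of the group without signal. Another 11, described as ubiquitin carboxyl-terminal hydrolase-related, had 23.2% with 7 low.

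**Figure D2:**
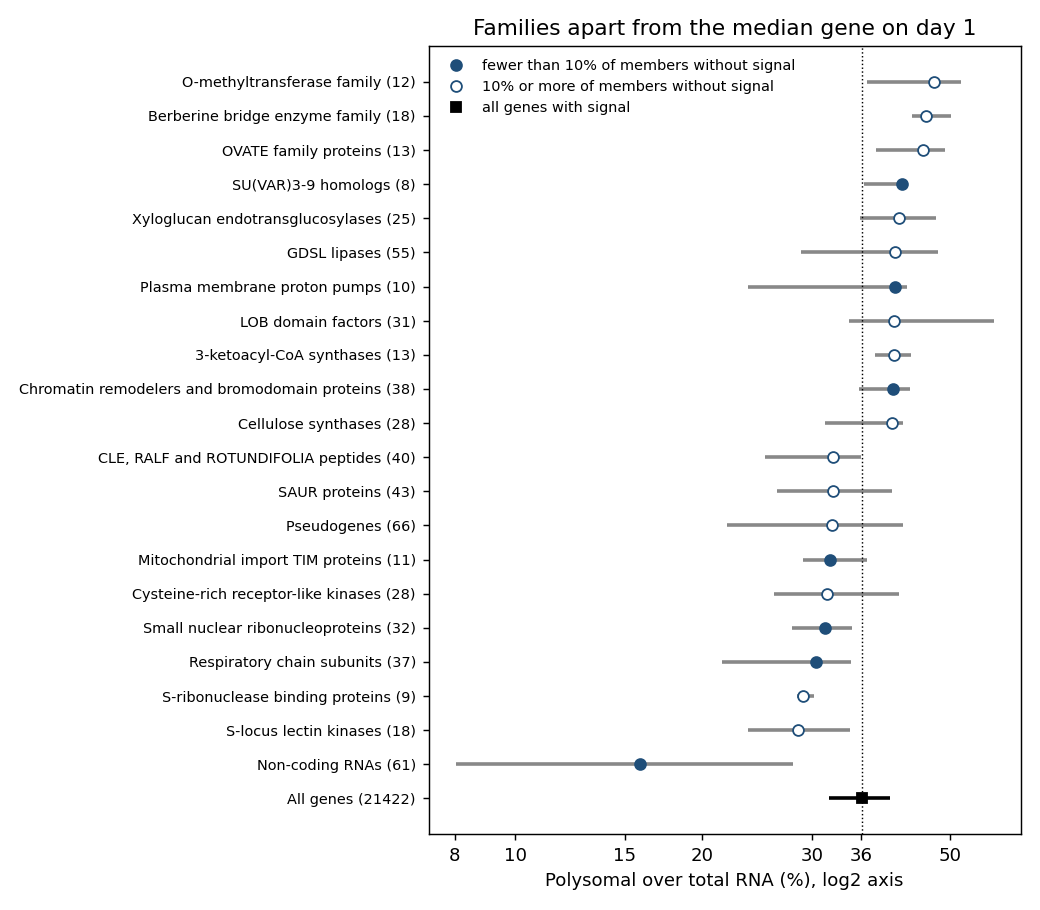
Median (points) and quartiles (bars) of the polysome ratio in percent, on a log2 axis, of the 21 families whose median lay at least 0.15 on the log2 scale from the median gene, with all genes in the lowest row. Numbers in brackets are members with signal, and open points mark families in which 10% or more of the members gave no signal; non-coding RNAs lie far to the left of every other family.

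RNAs that are not translated had the lowest family median. The 61 measured genes described as non-coding RNAs, of 65 on the array, had a median of 15.9%, against 36.1% for the median gene, a difference of -1.19 on the log2 scale; 46 were low and 4 were high. Their quartiles of 8.02% and 28.0% lay far apart. AT1G15405, described as another RNA, was measured by 2 probes at 2.62% and 2.95%. By RefSeq type, 4 nuclear RNA genes of the spliceosome had a median of 2.27%, 5 nucleolar RNA genes had 3.29%, 5 microRNA genes had 12.8% and 35 long non-coding RNA genes had 22.3%. The amplification started from oligo(dT), so these values may belong to polyadenylated precursors and not to the mature RNAs. AT7SL-1, described as a 7SL RNA, was at 4.72%, though RefSeq types its locus as protein-coding. 7SL RNA is the RNA of the signal recognition particle.

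A run of neighbouring loci on chromosome 2 was as low as the non-coding RNAs. Background for it is that chromosome 2 of this species carries a near-complete copy of the mitochondrial genome beside its centromere, and that mitochondrial transcripts are read by ribosomes inside the organelle. Of the 40 loci on the array between AT2G07670 and AT2G07790, 36 had signal, with a median of 12.4%, against 36.1% for the median gene. All 36 lay below the median gene, 34 were low, and 30 lay under 20%, a level under which 4.66% of all genes with signal lay. Members described as organelle proteins included AT2G07671, a subunit of the proton-driven ATP synthase, at 5.14%, and AT2G07695, a cytochrome c oxidase subunit, at 9.16%. AT2G07741, another ATP synthase subunit, had 9.93%, and AT2G07751, a subunit of complex I, had 10.2%. Higher were AT2G07689, also described as a complex I protein, at 18.3%, and AT2G07747, a maturase pseudogene, at 16.7%. AT2G07715, a ribosomal protein L2 copy, was measured by 4 probes between 9.93% and 10.9%. The 3 highest of the run were MCM5, part of the replicative helicase, with 35.5%, AT2G07750, an RNA helicase, with 33.9%, and ABCC13, an ABC transporter, with 26.1%. The other 33 lay between 5.14% and 23.1%. They were not all described as organelle genes: the transposable element genes AT2G07693, AT2G07710 and AT2G07767 had 8.18%, 16.1% and 20.9%, and AT2G07714, described as related to a transcription factor, had 17.3%. Many others were described as unknown proteins. The 13 measured loci just before the run, from AT2G07000 on, had a median of 41.2%. The limits of the run were set after its values were seen. The 4 genes of the mitochondrial genome itself with signal had a median of 13.8%, between 5.77% for ATMG01080, a membrane subunit of the ATP synthase, and 15.5% for ATMG01320, a subunit of complex I. Probes to such a copy also match the mitochondrial transcripts, and the array cannot tell the sources apart.

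**Figure D3:**
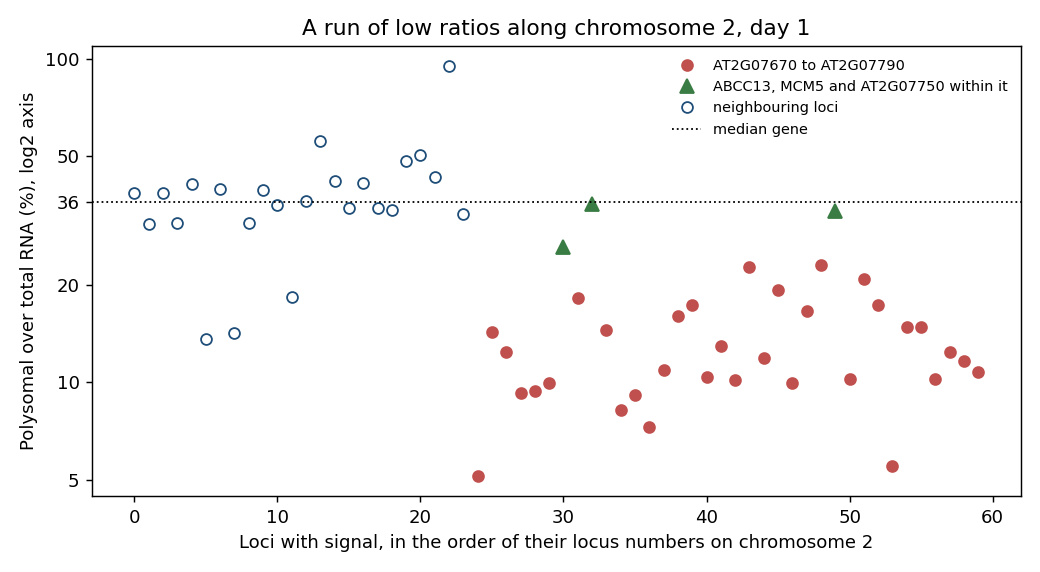
Polysome ratio in percent (log2 axis) of loci with signal on chromosome 2, in the order of their locus numbers. Filled circles are loci between AT2G07670 and AT2G07790, triangles are ABCC13, MCM5 and AT2G07750 within that run, open circles are neighbouring loci and the dotted line is the median gene; the filled circles lie between 5.14% and 23.1%, and MCM5 and AT2G07750 lie close to the line.

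mRNAs of ribosomal proteins lay slightly below the median gene. The 194 measured genes of large-subunit proteins had a median of 33.2% and the 96 of small-subunit proteins had 33.1%, against 36.1% for the median gene. Of the large-subunit genes 144 lay below the median gene, 32 (16.5%) were low and 3 (1.55%) were high. Of the small-subunit genes 77 lay below it, 14 (14.6%) were low and 1 (1.04%) was high. Over all genes 15.5% were low and 10.5% were high. The shares of low genes were thus near that of all genes, and the shares of high genes were smaller. These medians differed from the median gene by -0.12 for the large and -0.13 for the small subunit on the log2 scale. The wording of the descriptions does not separate every organelle ribosomal protein from these lists, and many ribosomal protein genes have close copies that one probe can detect together.

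Genes of a pair of very short ribosomal proteins were low throughout. The 3 genes of L41, the shortest ribosomal protein, were AT3G56020 at 9.59%, AT2G40205 at 10.1% and AT1G56045 at 11.4%, and all 3 were low. The 3 genes of L39, another very short protein, were AT4G31985 at 18.8%, AT2G25210 at 21.7% and AT3G02190 at 22.6%. The highest large-subunit gene was AT1G53560 at 50.7%. L5, which binds ribosomal RNA, had 45.6% for AT3G25520 and 43.4% for RPL5B. L41, L39 and L5 were picked after their values were seen, and the part of protein length was not tested. A few copies stood far below their relatives, such as AT2G40010, an L10 copy, at 5.57%, and AT1G33850, an S19 copy, at 6.87%, while AT5G09490, another S19 copy, reached 61.4%. Across genes of the large subunit the rank correlation of ratio and gene span was 0.27 (n = 194), and across those of the small subunit it was 0.24 (n = 96). Pearson correlations were 0.25 for the large and 0.41 for the small subunit. Genes are not independent replicates, and gene span counts introns, so these are descriptions only.

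Other parts of the translation machinery lay closer to the median gene. The 57 measured translation initiation factors had a median of 35.6%, with AT4G30680 lowest at 18.2% and the cap-binding factor eIF4E3 highest at 48.5%. The 29 elongation factors had 35.98%, with 2 low and none high, and AT1G18070 was highest at 43.5%. The 44 aminoacyl-tRNA synthetases, which charge tRNAs with amino acids, had 36.9%, with 3 low and none high, between 20.9% for AT1G17960 and 45.1% for ERS. The 19 ribosomal proteins described as those of plastids or mitochondria had 33.9%.

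Protein genes of the small nuclear ribonucleoproteins, the building blocks of the spliceosome, had a lower median. All 32 on the array had signal, with a median of 31.5%, against 36.1% for the median gene; 26 lay below the median gene, 9 were low and none was high. The 8 LSM genes, whose products form rings that bind RNA in splicing and in mRNA decay, were all below the median gene and 5 of them were low. LSM1A was lowest among them at 23.7% and LSM8 highest at 34.0%, with LSM3B at 25.6% and LSM6B at 25.9% between. The spliceosomal helicase emb1507 had the highest ratio of the family, 41.3%, while its close relative AT2G42270 had 22.4%, and AT2G14285 was lowest at 11.6%. Across the 32 genes the rank correlation of ratio and gene span was 0.42, and the Pearson correlation was lower, 0.27.

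Pentatricopeptide repeat genes lay mostly above the median gene. The 241 measured pentatricopeptide repeat genes, most of whose products edit, cut or stabilise organelle RNAs, had a median of 39.1%, against 36.1% for the median gene; 165 lay above it, 36 were high and 13 were low. Their range was wide, between 16.3% for AT1G63080 and 166% for AT3G11350. The family's rank correlation with gene span was 0.02 (n = 241). The 32 mitochondrial transcription termination factors had 37.0%, and the 56 RNA helicases had 37.2% with 5 high and 2 low. The 106 RNA recognition motif proteins had 35.1%, with 4 high and 19 low.

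Genes of mitochondrial membrane complexes lay mostly below the median gene. The 37 measured respiratory chain genes had a median of 30.5%, against 36.1% for the median gene; 29 lay below it, 17 were low and 1 was high. Without the 5 loci of the mitochondrial genome or its copy on chromosome 2, the 32 others had a median of 32.0%, with 12 low and 1 high. Among these, small subunits of complex III, AT5G05370 at 18.9% and AT3G10860 at 21.5%, and of complex I, AT1G14450 at 19.8% and AT2G02510 at 20.1%, were among the lowest. EMB1467, the largest subunit of complex I, had 32.3%, and COX15, which acts in heme synthesis for cytochrome c oxidase, had 37.5%. AT1G32720, described as a subunit VIB of cytochrome c oxidase, was alone on the high side at 64.0%. The 11 genes described as inner membrane import proteins had a median of 32.1%, with 3 low and none high, between 27.0% for AT1G18320 and 40.6% for AT5G51150, with ATOEP16-2, a protein of the plastid envelope, at 32.1%. The 36 mitochondrial carriers, which move metabolites across the inner membrane, had 35.6%, with 1 high and 5 low.

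**Figure D4:**
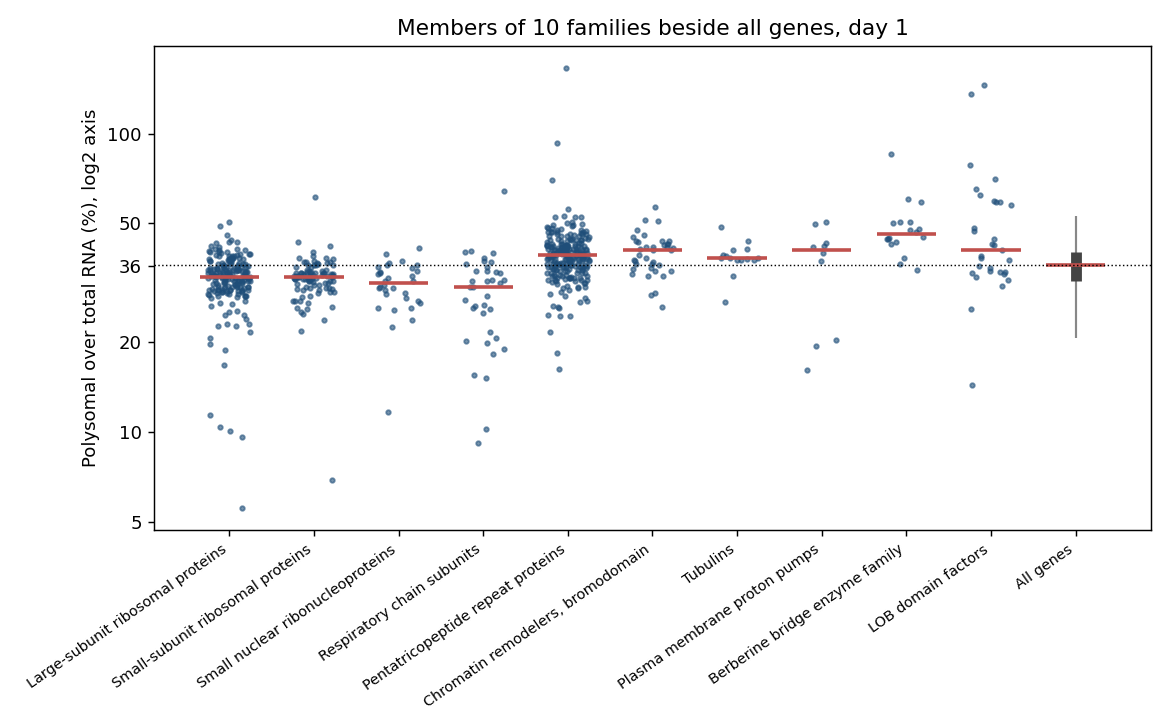
Polysome ratio in percent (log2 axis) of each measured member of 10 families (points) with the family median (red line), and at the right all genes, where the thick bar spans the quartiles, the thin line the 5th to 95th percentile and the red line the median. Ribosomal, splicing and respiratory genes lie mostly below the dotted line of the median gene with tails down to 5.57%, and the 3 low proton pumps are separate from the other 7.

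Histone genes lay just below the median gene and chromatin remodelers above it. The 45 measured histone genes, which encode short proteins, had a median of 34.4%, against 36.1% for the median gene, with quartiles at 33.1% and 36.3%; 33 lay below it, 3 were low and 3 were high. Remodelers and bromodomain proteins had a median of 40.6% over 38 genes, with 28 above the median gene, 5 high and 2 low. With signal-free spots kept, the median of the remodelers lay 0.11 on the log2 scale above the median gene in place of 0.17, and so under the bound of 0.15. PKL, a remodeler that represses embryonic genes, had 36.6%, CHR34 had 56.8%, and chr31, a remodeler of the RNA-directed silencing pathway, was measured by 2 probes at 49.8% and 52.7%. The 8 SU(VAR)3-9 homologs, which methylate histones or bind methylated DNA, had a median of 41.8%; the histone methyltransferase SUVH4 had 37.2%, SUVH6 had 34.1%, SUVH5 had 41.8%, SUVH2 had 41.9%, SUVH1 had 42.6% and SUVH9 had 42.9%. SUVH3 was lowest at 31.5%, and SUVH7 was the one called high, at 62.8%. Centring values by position on the array brought their median to 0.14 on the log2 scale above the median gene, in place of 0.21. The 37 replication genes had 38.5% with 1 high and 1 low.

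Transcription factor families had medians near the median gene with a few exceptions. WRKY factors had 35.03%, NAC factors 35.5%, bHLH factors 35.7%, AP2/ERF and B3 factors 35.98% and MYB factors 36.1%, with between 12.7% and 35.5% of their members without signal. The 19 measured GRAS factors had 40.1%, with 1 high and 2 low. Their median lay 0.149 on the log2 scale above the median gene, just under the bound of 0.15. SHR, which patterns the root, had 36.1%, its partner SCR had 47.8%, and the gibberellin repressors RGA1 and GAI had 37.8% and 40.6%. The 13 measured OVATE proteins, transcriptional repressors that shape organs, had a median of 45.3%, against 36.1% for the median gene; 7 were high and 1 was low, and 27.8% of the family had no signal. OFP1 had 45.3%, OFP12 had 70.6% and OFP17 had 25.1%. The 31 measured LOB domain factors had 40.7% with 12 high and 2 low, and 24.4% of the family had no signal. Without genes above 100% their median lay 0.11 on the log2 scale above the median gene in place of 0.17, and so under the bound of 0.15. Their spread was wide: LBD25 had 14.4%, LBD18 had 33.0% and LBD16 had 35.9%, while LBD29, which like both of these acts in lateral root formation, was given 146%. LBD37, LBD38 and LBD39, which act in the response to nitrogen, had 40.7%, 34.2% and 37.7%.

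SQUAMOSA promoter-binding factors, which time the change to the adult and flowering phases, had a median of 33.4% over 13 genes, with 4 low and 1 high, and 13.3% of the family had no signal. SPL15 at 21.2%, SPL3 at 21.4% and SPL10 at 22.4% were lowest, while SPL1 at 36.8%, SPL12 at 36.6% and SPL9 at 37.2% lay near the median gene. SPL5 was highest at 50.0%.

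Genes paired with a conserved frame in their leader lay mostly below the median gene. The file pairs 50 genes with the locus of such a frame, and 49 had signal, with a median of 32.4%, against 36.1% for the median gene. Of the 49, 32 lay below the median gene, 11 were low and 3 were high. Over all genes 15.5% were low and 10.5% were high. Background here is that sucrose is known to repress translation of the S1 group of bZIP factors through such a frame. All 5 members of that group lay below the median gene: BZIP53 had 21.5%, GBF6 had 25.9%, bZIP2 had 28.1%, bZIP1 had 28.5% and bZIP44 had 30.1%. The whole bZIP family, of 48 measured genes, had a median of 35.7%, and 18.6% of the family had no signal. The kinases WNK5 at 24.4%, WNK10 at 29.8% and WNK8 at 30.9% were also below the median gene. Other groups of the list lay above it. The methyltransferases PMEAMT, XPL1 and AT1G73600 had 37.7%, 38.2% and 40.6%. The hydrolases TPPG and TPPF had 36.3% and 40.5%, and the polyamine oxidase PAO3 had 39.8%, though PAO2 had 34.0%. Genes of polyamine synthesis, where such frames sense polyamines, differed among themselves: SAMDC had 34.0% and AT5G15950 had 34.8%, but AT3G25570, another adenosylmethionine decarboxylase, had 71.3%. AT1G58120 was given 110%. The heat stress factor HSF4 had 28.6%.

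Receptor kinases differed by class. The 18 measured S-locus lectin kinases had a median of 28.5%, against 36.1% for the median gene; 9 were low and 2 were high, and 18.2% of the family had no signal. Of these, 8 lie in one cluster of neighbouring loci, from AT1G61360 at 29.2% to AT1G61550 at 27.9%, and AT1G61490 was lowest there at 16.4%; one more neighbour, AT1G61610, was given 110%. The 28 measured cysteine-rich receptor-like kinases had 31.8% with 10 low and 5 high, between 16.4% for CRK28 and 72.3% for CRK26, and 26.3% had no signal. With the signal-free members kept, this median differed from the median gene by -0.01 on the log2 scale in place of -0.19. By contrast the 143 leucine-rich repeat kinases had 37.7%, with 19 (13.3%) high and 23 (16.1%) low, and 19.7% without signal. The 38 kinases with a concanavalin A-like lectin domain had 37.9%, with 6 (15.8%) high and 5 (13.2%) low. Over all genes 10.5% were high and 15.5% were low, so the shares of low genes in both classes were near that of all genes. Among the S-locus lectin and the cysteine-rich kinases 50% and 35.7% were low. Calcium-dependent kinases had 38.5% over 23 genes, with 25.8% of the family without signal, and 19 of these lay above the median gene, though CPK23 was at 8.53%.

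Genes of small signalling peptides had a low median. The 40 measured CLE, RALF and ROTUNDIFOLIA-like genes had a median of 32.5%, against 36.1% for the median gene, with 15 low and 3 high, and 32.2% of them had no signal. With those kept, the difference from the median gene was -0.06 on the log2 scale in place of -0.15, and centring by position on the array gave -0.14. The 9 ROTUNDIFOLIA-like genes, whose peptides restrain cell division in growing organs, had 20.8%; all 9 lay below the median gene and 7 were low, between 11.8% for RTFL16 and 36.1% for RTFL1. The 22 CLE genes, whose peptides signal to receptor kinases in meristems, had 33.1% with 6 low and 2 high. CLE41 had 9.57% and CLE44, which encodes the same vascular signal peptide, had 32.4%. The 9 RALF genes, peptides that raise the pH of the cell wall, had 33.4%, with RALFL33 lowest at 25.5%. The 43 measured SAUR genes, short auxin-responsive genes, had 32.4% with 13 low and 9 high, and 41.1% of them had no signal. With the signal-free members kept, the SAUR median lay 0.39 on the log2 scale above the median gene in place of a difference of -0.16.

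The plasma membrane proton pumps were divided. The 10 pumps, which build the proton gradient that drives uptake, all had signal and fell into 2 sets with a gap between them. HA7 had 16.1%, HA8 had 19.5% and HA5 had 20.3%, and the other 7 lay between 37.3% for HA2 and 50.4% for HA6. HA1, with HA2 the main pump of most tissues, had 41.9%. With signal-free spots kept across the array, the median of the pumps lay 0.12 on the log2 scale above the median gene in place of 0.17. The 26 measured aquaporins had a median of 39.4% with 6 high and 1 low, and 21.2% of them had no signal; 6 tonoplast members had 48.5%, 11 plasma membrane members had 41.4% and 7 NOD26-like members had 36.5%. TIP2;3 was highest at 61.2% and NIP4;2 lowest at 18.8%.

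Among wall genes the 28 measured cellulose synthases and their relatives had a median of 40.3%, with 5 high and 6 low, and 12.5% had no signal. With those kept, the median lay 0.13 on the log2 scale above the median gene in place of 0.16. The subunits of the primary wall complex lay close together, CESA1 at 41.02%, CESA6 at 38.9% and CEV1 at 37.9%. Those of the secondary wall complex did not: CESA4 had 24.2%, IRX3 had 28.0% and IRX1 had 64.6%. The 25 measured xyloglucan endotransglucosylases, which cut and rejoin wall polymers, had 41.5% with 8 high and 2 low, and 16.7% had no signal; XTH5 was lowest at 13.5%, TCH4 had 37.2%, and XTH21 was given 106%. Arabinogalactan proteins had 35.6% over 52 genes with 6 high and 10 low. AGP23 was lowest at 6.65%, AGP5 was highest at 59.7%, and AGP17 was measured by 2 probes at 45.4% and 50.5%.

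Of the 96 families, O-methyltransferases and berberine bridge enzymes had the highest 2 medians, and OVATE proteins came next. Among the groups of like descriptions, 9 receptor-like protein kinase-related genes had 46.6%, above the berberine bridge and OVATE medians. Of these 5 were high and 1 was low, and 50% of that group had no signal. The 12 measured O-methyltransferases had a median of 47.1%, against 36.1% for the median gene; 7 were high and 1 was low, and 20% of the family had no signal. IGMT1 at 49.3%, IGMT2 at 64.1%, IGMT3 at 49.1% and IGMT4 at 73.5%, neighbouring genes that act on indole glucosinolates, were all high, while IGMT5 had 36.8% and OMT1, of the lignin and flavonol pathways, had 36.7%. The near-identical sequences of IGMT1 to IGMT4 mean that their probes may not be independent. The 18 measured members of the berberine bridge enzyme family, oxidases that carry FAD, had 45.9%; 17 lay above the median gene, 9 were high and none was low, and 30.8% had no signal. AT1G26380 was lowest at 34.8%, AT1G30730 had 45.1% and AT1G26420 was highest at 85.1%. The 13 measured ketoacyl-CoA synthases, which lengthen fatty acids for waxes, had 40.6% with 1 high and none low, and 31.6% had no signal. GDSL lipases, hydrolases of esters and lipids, had 40.8% over 55 genes with 17 high and 14 low, between 9.68% for AT3G50400 and 131% for AT4G01130, and 36.05% had no signal. Cytochrome P450 genes had 38.6% over 156 genes with 44 high and 26 low, and 33.3% had no signal. In these families the share without signal is large, and signal-free spots sit at 53.8%, above every one of their medians.

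Some families were held tightly together. The 15 tubulins had a median of 38.4% and an interquartile range of 0.08 on the log2 scale, against 0.33 for all genes; 13 lay above the median gene, and TUA2 at 27.2% and TUB3 at 48.5% were the extremes. The 40 proteasome subunits had 35.98% and a range of 0.14, with 1 low and none high, between 26.4% for RPN12b and 42.9% for RPT5B. The 12 measured auxin response factors, with 25% of the family without signal, had 37.2% and a range of 0.08, and the 34 ubiquitin-conjugating enzymes had 34.95% and a range of 0.14. The 9 measured S-ribonuclease binding proteins, with 10% of the family without signal, had 29.0% and a range of 0.09, with 4 low and none high. Photosystem subunits, all 34 of which had signal in these cells, had 35.9% with 1 high and 2 low, and 25 light-harvesting antenna genes had 37.0% with 2 high and 1 low. The 34 genes of HSP70, HSP90 and chaperonin proteins had 38.1%, with 25 above the median gene and the lumenal chaperone BIP3 highest at 53.1%. Cyclins and their kinases had 34.6% over 67 genes, with 7 low and 3 high, between 14.9% for CYCD6;1 and 64.4% for CYCP4;2. Glycolytic enzymes had 37.8% over 52 genes, with 5 high and 1 low. Transposable element genes were far more scattered, with a median of 35.9% and a range of 0.98 over 197 genes, 53 of them high and 69 low, and 43.9% of them gave no signal. Pseudogenes had 32.3% over 66 genes, with 10 high and 28 low, and 44.5% gave no signal; with these kept, their median lay 0.44 on the log2 scale above the median gene.

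Gene span was weakly related to the ratio. Across 21018 protein-coding genes the rank correlation with the RefSeq gene span, introns included, was 0.10, given without a p since genes share one hybridisation. With signal-free genes kept it was -0.0775. Genes of up to 500 bases had a median of 32.9% over 232 genes, with 21.1% high and 36.6% low, and 49.1% of such genes on the array had no signal. Genes of 3000 to 4000 bases had a median of 37.0% over 3347 genes, with 7.35% high and 10.0% low, and those over 6000 bases had 36.5% with 5.35% high, 9.61% low and 3.41% without signal. The shortest class was thus lower and also far more scattered on both sides, with an interquartile range of 0.87 on the log2 scale against 0.24 in the longest. Across the 42 families with few signal-free members the rank correlation of median ratio and median gene span was 0.54, and across all 96 it was 0.31. Pearson correlations with the log2 of the span were lower, 0.19 across the 96 families and 0.0789 across the protein-coding genes.

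**Figure D5:**
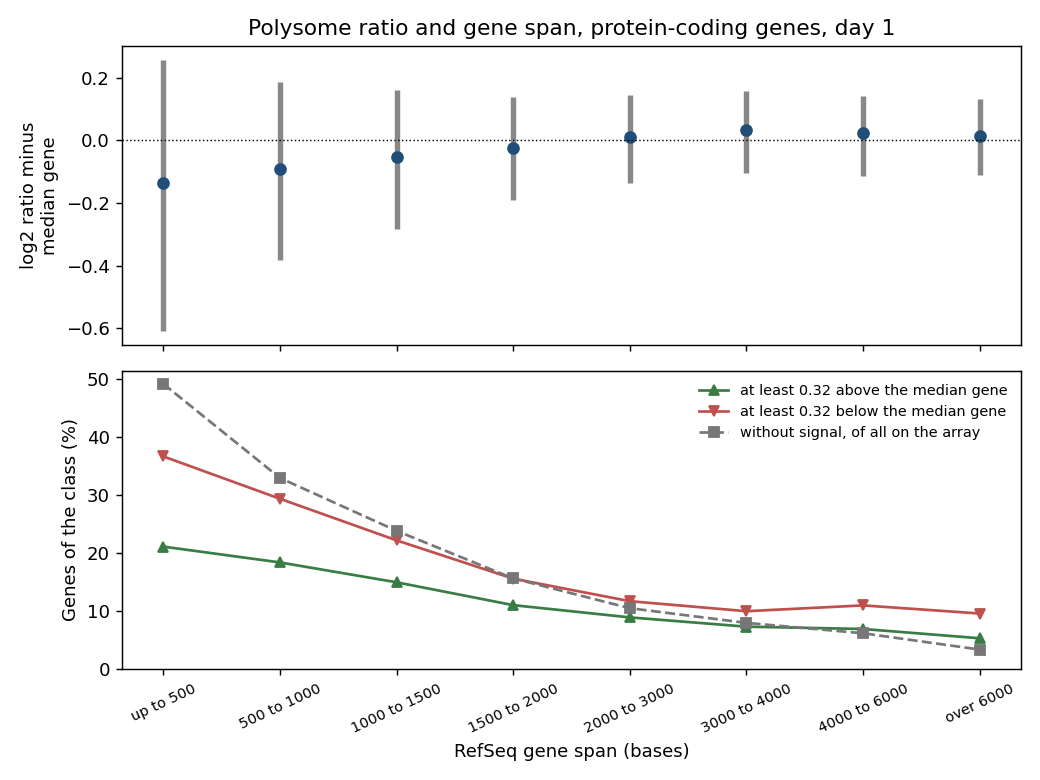
Upper panel: median (points) and quartiles (bars) of the log2 ratio minus that of the median gene, in classes of RefSeq gene span in bases. Lower panel: share of the genes of each class, in percent, that lay at least 0.32 above or below the median gene, and share of all genes of the class on the array without signal; all 3 shares are largest for the shortest genes.

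The most extreme named protein-coding genes came mostly from single probes. Among the lowest were iqd21, a calmodulin-binding protein, at 4.49%, UGT73B2, a flavonol glycosyltransferase, at 5.04%, MEE38 at 5.25% and LAF3, of far-red light signalling, at 5.80% over 2 probes. BEE1, a factor induced by brassinosteroid, had 7.71%, RAP2.4, an ethylene response factor, had 8.57%, and SUS6, a sucrose synthase of the phloem, had 9.38%. Among the highest at or under 100% were GEA6, a late embryogenesis protein, at 100%, LRX2, an extensin of root hairs, at 98.9%, ZIP7, a metal transporter, at 95.9%, PROPEP1, the precursor of an immune peptide, at 95.7%, and the purple acid phosphatases PAP14 at 94.8% and PAP25 at 93.8%. Of the 362 genes whose probes differed by at most 0.3 on the log2 scale, the highest was GAT1_2.1, a glutamine amidotransferase, with probes at 84.5% and 95.3%. AT2G19610, a RING ligase, came next with probes at 59.6% and 62.7%, and CAX1, a vacuolar calcium exchanger, had 48.1% and 49.0%. The lowest protein-coding ones were AT5G21020 at 6.89% and AT2G31150 at 7.42%, each over 2 probes.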

How the data were processed

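Values were the log10 polysome ratio per spot as the authors deposited it, and the background, dye and spike-in handling behind it are not given in the sources here. The log base was read from 10 spike-in probes, with medians between -0.838 and 0.925 and one at 0. The largest difference between both deposited sources of the day 1 values was 0. Channel signals were not analysed here, nor were the day 8 values, and 0 columns lacked a sample. The number of arrays limits the precision.

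A spot was taken as without signal where it lay within 0.006 (log10) of the local value of the negative controls, estimated over 30 neighbours. This took 94.3% of 757 negative controls, 1.56% of 320 spike-in spots and 25.5% of gene spots. Spots were averaged per probe, then probes per gene, on the log2 scale. Probes were named by locus (25920), RefSeq accession (253) or a pair of main gene and upstream frame (50), while 9323 had only their own identifier, 1726 matched nothing else and 206 named several loci. Symbols, types and spans came from RefSeq TAIR10.1, where 25379 of 25453 loci were found. Span replaced the planned protein length, which was not used here.

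Families need at least 8 measured members. Members and lists were chosen with earlier results of these data known, and patterns were corrected for wording after the descriptions and values had been seen. Sub-lists within families, the chromosome 2 run included, were also chosen after their values were seen. Named genes were drawn from each described family's lowest, highest and nearest to its median, but not all of these are given for every family. Others came from the 12 lowest and 12 highest named protein-coding genes at or under 100%. The rest came from the 5 lowest and 5 highest with at least 2 probes within 0.3 (log2), and from small lists. Further members named in the text were chosen after their values were seen. Alternatives changed the signal filter, the averaging, the gene set, the fold, the family rule and the position on the array. The steps were tested on simulated data. Python 3.11.15, numpy 2.4.6, pandas 2.3.3, scipy 1.17.1 and matplotlib 3.10.9 were used.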

Additional observations from a re-analysis of the deposited data

Results flagged for a closer look

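Outside the named genes, 4448 of 9323 probes known only by their own identifier (47.7%) gave a value apart from that of spots without signal, against 43 of 757 negative control spots (5.68%). Their median ratio was 34.8%, with 27.6% of them high and 36.1% low, against 10.5% and 15.5% of the named genes.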

How the results depend on the processing

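Keeping spots without signal changed most, by construction, since it adds values near 53.8%: high genes numbered 5878 in place of 2260, 33.3% of families in place of 21.9% lay at least 0.15 on the log2 scale from the median gene, and the rank correlation with gene span turned to -0.0775. With these spots 15 of 96 family medians changed sign. Of the 21 families at least 0.15 from the median gene, 7 no longer were on the same side, among them Pseudogenes at 0.44 and SAUR proteins at 0.39 on the opposite side, and 16 others newly were. At 1.5-fold, a stricter bound, 1006 genes were high and 1699 low. Under the 6 other settings for the filter, averaging, gene set and array position, family medians moved by less than 0.15, but a few ended below that bound: LOB domain factors at 0.11 without genes above 100%, SU(VAR)3-9 homologs at 0.14 and the CLE, RALF and ROTUNDIFOLIA genes at -0.14 with array position centred, and SAUR proteins at -0.148 among protein-coding genes. The cause was not tested. The respiratory chain median without organelle-type loci, added after seeing the data, was -0.17 in place of -0.25. Leaving out a replicate was not possible with 1 array. No paired analysis was possible because there is 1 array per day and the day 8 values were not used. Families with more signal-free members tended to scatter more, with non-coding RNAs as an exception; its cause was not tested.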
